A study of Mus musculus with 18 samples.

Results

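The 34 genes described here encode the cytosolic aminoacyl-tRNA synthetases with their scaffold proteins (22 genes) and the transcription factor ATF4 with its partners, targets and an upstream kinase (12 genes). They were followed in splenic B cells after crosslinking of the B-cell receptor in mice, with and without inhibition of Bruton's tyrosine kinase (BTK). Each gene was read from its probe sets that carried a single gene symbol, and the probe set with the highest mean signal over all arrays stood for the gene. Of the 34 genes, 33 had such a probe set, out of 18193 genes named on the array, and 32 passed a filter on low signal that left 11104 genes to test. Dars, the aspartyl-tRNA synthetase gene, was not analysed here. The gene that did not pass was Nupr1, a stress-induced chromatin protein gene, with mean signals of 9.65 ± 1.40 in Anti-IgD + PF-303, 11.5 ± 6.60 in Anti-IgD + vehicle, 10.9 ± 5.76 in PBS + PF-303 and 8.35 ± 5.76 in PBS + vehicle (SD, n = 5, 4, 5 and 4).

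RNA was measured on 18 Affymetrix Mouse Genome 430 2.0 arrays, which read the 3' part of each transcript. All mice were C57BL/6J, and all samples were CD23+ B lymphocytes from spleen; CD23 is the low-affinity IgE receptor that marks follicular B cells. Mice were injected with PF-303, a BTK inhibitor, or with its vehicle, and 2 h later B cells were activated in vivo with antibody to IgD, or PBS was given as control. Cells were taken 2 h after the antibody. The groups were Anti-IgD + PF-303 (5 arrays), Anti-IgD + vehicle (4 arrays), PBS + PF-303 (5 arrays) and PBS + vehicle (4 arrays). A single drug dose and a single time were sampled, the whole animal received drug and antibody, and the labels do not say that each array was a separate mouse. Values are linear MAS5 signals scaled to a common level on each array, so each change is read against the other genes of the array. Fold changes are on the log2(signal + 16) scale from 1 limma fit of all arrays, with their standard error (SE), and a gene was called where its adjusted p was under 0.05.

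An aminoacyl-tRNA synthetase joins an amino acid to its tRNA, the step that supplies charged tRNA to the ribosome. Several of these enzymes sit together in the multisynthetase complex, held by the scaffold proteins encoded by Aimp1, Aimp2 and Eef1e1, while the rest act outside it. Class I and class II synthetases have unrelated catalytic folds. When charged tRNA runs short, the kinase GCN2, encoded by Eif2ak4, phosphorylates the initiation factor eIF2, which lowers general translation and favours translation of Atf4 mRNA. ATF4 then binds composite C/EBP-ATF elements and raises genes for amino acid supply, tRNA charging and the feedback on eIF2. B cells leaving quiescence also enlarge their capacity for protein synthesis.

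The marker of the sorted cells was present on every array: Fcer2a, which encodes CD23, had signals of 1543 to 2979. The summed signal of 9 follicular B-cell markers with a probe set, of 11 listed, was 31466 to 49851 in Anti-IgD + PF-303, 23268 to 28589 in Anti-IgD + vehicle, 30462 to 56762 in PBS + PF-303 and 30874 to 62548 in PBS + vehicle, so the stimulated vehicle group lay below the other groups. The summed signal of 9 T-cell markers, of 10 listed, was also lowest there, at 989 to 1303 in Anti-IgD + PF-303, 516 to 565 in Anti-IgD + vehicle, 1214 to 1526 in PBS + PF-303 and 1106 to 1336 in PBS + vehicle. That sum followed Cd2, which B cells of the mouse also carry, while the T-cell markers Cd3e, Cd4, Cd8b1 and Thy1 did not pass the filter. The markers Cd3d, Cd3g, Cd8a and Cd28 did pass it, with highest signals of 35.2, 27.2, 45.6 and 40.8 on any array. Summed signals of 6 marginal zone and B1 B-cell markers were 2550.1 to 3504 in Anti-IgD + PF-303, 1713 to 2076 in Anti-IgD + vehicle, 2460.3 to 2840.1 in PBS + PF-303 and 2214 to 3184 in PBS + vehicle. Those of 6 stromal and endothelial markers were 137 to 203 in Anti-IgD + PF-303, 94.9 to 145 in Anti-IgD + vehicle, 234 to 401 in PBS + PF-303 and 194 to 399 in PBS + vehicle, with Col1a1, Col1a2, Col3a1 and Cdh5 below the filter. Most of this sum was the signal of 1 gene, Pecam1, at 112 to 151, 62.9 to 90.0, 197 to 318 and 161 to 343 in the same order of groups. Summed macrophage and monocyte markers overlapped between all groups (1018 to 3403). The sums of 5 plasma cell markers, of 6 listed, overlapped too (1723 to 3201), with Tnfrsf17 below the filter. Most of that sum was the signal of Jchain, at 1552.5 to 2975. Prdm1, on the same list, had 63.1 to 89.0 in Anti-IgD + PF-303, 66.2 to 85.6 in Anti-IgD + vehicle, 25.1 to 35.9 in PBS + PF-303 and 20.1 to 32.1 in PBS + vehicle. The part of these shifts in the results was not tested, and in bulk RNA fewer cells of a type and less RNA per cell cannot be told apart. In 6 arrays the spike-in controls exceeded 2 times their median over all arrays: replicates 1 and 3 of Anti-IgD + PF-303, replicates 3 and 4 of PBS + PF-303 and replicates 3 and 4 of PBS + vehicle.

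With vehicle, anti-IgD raised most of these genes. Of the 32 genes tested, 23 were higher and 2 were lower in Anti-IgD + vehicle than in PBS + vehicle, where 47.9% of all genes tested were called, 17.4% higher and 30.6% lower. The median log2 fold change was 0.55 over the 32 genes and -0.13 over all genes. By family, 17 of 21 synthetase and scaffold genes rose and 2 fell (median 0.66), and 6 of 11 genes of the ATF4 response rose (median 0.36). Among these 25 calls, the arrays of both groups overlapped for Cebpb and Eif2ak4 and did not for the others. Overlap was not computed over all genes, so its absence does not set these genes apart. Shifting the arrays to one common median moved the median of all genes to 0.04 and that of the 32 genes to 0.72, and the called genes of the whole table were then 56% higher ones, in place of 36.2%. The counts of the 32 genes were 25 higher and 1 lower after that shift, and 26 higher and 2 lower after quantile normalization, where 47.1% of all calls were higher ones.

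Promoter sequence is shown for 6 genes that rose with anti-IgD and hold the composite element in their window: 5 synthetase genes of the complex and outside it, and Trib3 of the ATF4 response. The windows are RefSeq promoters of the GRCm38.p6 assembly, 250 bases before to 50 bases after the gene start, printed 5′ to 3′ on the strand of the gene, and capitals mark the composite element TGATGNAA (or its reverse complement) and the E-box CACGTG, the motif bound by MYC and MAX. Aars lies at chr8:111033592-111033891, plus strand. Gars lies at chr6:55037751-55038050, plus strand. Iars lies at chr13:49681880-49682179, plus strand. Tars lies at chr15:11399609-11399908, minus strand. Yars lies at chr4:129189653-129189952, plus strand. Trib3 lies at chr2:152344011-152344310, minus strand.
Aars: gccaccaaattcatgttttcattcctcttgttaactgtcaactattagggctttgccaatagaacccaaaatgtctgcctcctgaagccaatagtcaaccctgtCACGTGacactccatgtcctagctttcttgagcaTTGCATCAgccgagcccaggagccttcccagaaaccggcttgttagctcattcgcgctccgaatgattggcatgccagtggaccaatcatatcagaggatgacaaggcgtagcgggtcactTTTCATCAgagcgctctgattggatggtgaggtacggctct
Gars: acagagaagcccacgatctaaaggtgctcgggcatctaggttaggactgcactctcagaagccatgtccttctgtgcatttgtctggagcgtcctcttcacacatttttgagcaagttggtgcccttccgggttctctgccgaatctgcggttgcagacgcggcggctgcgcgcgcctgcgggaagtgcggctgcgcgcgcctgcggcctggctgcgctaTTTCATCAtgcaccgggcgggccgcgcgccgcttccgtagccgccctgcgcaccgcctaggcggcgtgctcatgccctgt
Iars: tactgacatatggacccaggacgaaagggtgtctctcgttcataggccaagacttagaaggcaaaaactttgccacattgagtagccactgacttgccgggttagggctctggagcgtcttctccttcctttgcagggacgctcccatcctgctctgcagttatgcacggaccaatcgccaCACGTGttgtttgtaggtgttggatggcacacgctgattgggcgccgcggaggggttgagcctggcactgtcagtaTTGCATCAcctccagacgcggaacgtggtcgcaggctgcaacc
Tars: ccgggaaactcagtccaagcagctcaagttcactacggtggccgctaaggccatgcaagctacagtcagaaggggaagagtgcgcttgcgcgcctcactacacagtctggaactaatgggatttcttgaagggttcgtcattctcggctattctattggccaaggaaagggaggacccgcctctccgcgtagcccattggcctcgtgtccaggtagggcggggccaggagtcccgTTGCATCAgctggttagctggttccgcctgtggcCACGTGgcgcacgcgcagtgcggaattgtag
Yars: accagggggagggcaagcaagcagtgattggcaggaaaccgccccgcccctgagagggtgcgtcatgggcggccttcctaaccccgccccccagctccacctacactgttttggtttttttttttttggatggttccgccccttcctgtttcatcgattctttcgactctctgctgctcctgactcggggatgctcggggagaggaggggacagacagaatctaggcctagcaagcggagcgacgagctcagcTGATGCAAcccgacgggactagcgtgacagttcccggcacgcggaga
Trib3: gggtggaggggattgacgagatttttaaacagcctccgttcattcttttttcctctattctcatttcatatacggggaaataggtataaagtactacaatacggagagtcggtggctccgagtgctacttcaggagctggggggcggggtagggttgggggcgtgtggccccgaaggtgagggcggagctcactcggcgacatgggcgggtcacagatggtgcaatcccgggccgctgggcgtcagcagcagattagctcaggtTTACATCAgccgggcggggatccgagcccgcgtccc

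The composite element began 112 bases before and 10 bases after the start in Aars, 30 before it in Gars, 8 after it in Iars, 15 before it in Tars, 4 after it in Yars and 15 after it in Trib3. The E-box began 146 bases before the start in Aars, 69 before it in Iars and 20 after it in Tars. Promoter windows were matched for 26 of the 34 genes; Cars, Dars, Hars, Lars, Nars, Rars, Vars and Wars were not matched. The composite element, on either strand, was in the windows of 9 of these 26 genes (34.6%), against 4.51% of 27025 genes in the promoter table. Besides the 6 shown, these were Asns, Chac1 and Nupr1. ATF4 targets were put on the list by design, so the larger share than in all genes is no result of these data. The E-box was in 5 of the 26 (19.2%; Aars, Farsb, Iars, Tars and Nupr1), against 8.09% of all genes, and 4 genes held both motifs, which do not overlap one another. Among the genes tested, the median log2 fold change with anti-IgD and vehicle was 0.60 for the 8 with the composite element, of which 6 rose, and 0.52 for the 17 without it, of which 12 rose and 1 fell. A match describes the letters of the window only.

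Of the 9 genes grouped here as the multisynthetase complex, 7 rose with anti-IgD (median 1.01), a grouping set with the values known. It leaves out Dars, which was not analysed, and Mars1, which is given below with other genes of aminoacylation and related tRNA steps. Iars, which charges tRNA with isoleucine, had 1053, 1003, 1069 and 1256 in the Anti-IgD + vehicle arrays, against 518, 491, 412 and 350.1 in the PBS + vehicle arrays (in replicate order). The lowest stimulated array was thus well above the highest PBS array, and the log2 fold change was 1.29 ± 0.12 (SE; limma, adjusted p = 1.1e-08). Rars, the arginyl-tRNA synthetase gene, had 1077, 981, 1119 and 1055 in the Anti-IgD + vehicle arrays, against 444, 499.7, 431 and 416 in the PBS + vehicle arrays. The groups did not overlap here either, with a log2 fold change of 1.21 ± 0.07 (adjusted p = 1.7e-11). Eprs, which encodes the bifunctional glutamyl-prolyl-tRNA synthetase, had 819, 745, 893 and 891 in the Anti-IgD + vehicle arrays, against 454, 425, 348 and 404 in the PBS + vehicle arrays, a ratio of means of 2.05 and a log2 fold change of 1.01 ± 0.11 (adjusted p = 1.6e-07). Rises were smaller for Lars, the leucyl-tRNA synthetase gene (464 to 652 in Anti-IgD + vehicle and 324 to 390.2 in PBS + vehicle; 0.57 ± 0.09), and for Kars, the lysyl-tRNA synthetase gene (675 to 707 in Anti-IgD + vehicle and 438 to 580.5 in PBS + vehicle; 0.52 ± 0.09).

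The scaffold genes were not alike. Aimp2, whose product anchors many enzymes of the complex, had 591, 675, 700.3 and 674 in the Anti-IgD + vehicle arrays, against 275, 279.7, 314 and 256 in the PBS + vehicle arrays, without overlap, and a log2 fold change of 1.19 ± 0.10 (adjusted p = 1.9e-09). Eef1e1, which encodes the scaffold protein AIMP3, had 1177, 1459.7, 1348 and 1461 in the Anti-IgD + vehicle arrays, against 585, 658, 549 and 511 in the PBS + vehicle arrays, again without overlap (1.22 ± 0.09; adjusted p = 5.9e-10). Aimp1, the gene of the scaffold protein p43, had 479, 441, 488 and 409 in the Anti-IgD + vehicle arrays, against 424, 430.2, 522 and 429 in the PBS + vehicle arrays. Those ranges overlapped, and the log2 fold change was 0.01 ± 0.09 (adjusted p = 0.93; 95% interval -0.17 to 0.19), or 0.18 after the shift to one median. Qars, the glutaminyl-tRNA synthetase gene and a part of the same complex, was lower: it had 477, 543, 491 and 533 in the Anti-IgD + vehicle arrays, against 694, 763, 703 and 619 in the PBS + vehicle arrays, without overlap. Its log2 fold change was -0.43 ± 0.12 (adjusted p = 0.0040), and the call was lost after the shift to one median (-0.26, adjusted p = 0.078) and with the position row, the row letter of a position code in the labels, as a block (-0.34, adjusted p = 0.11).

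Outside the complex, 10 of 12 synthetase genes rose with anti-IgD (median 0.58). Tars, the threonyl-tRNA synthetase gene, had 764, 632, 813 and 827 in the Anti-IgD + vehicle arrays, against 315, 340.0, 268 and 318 in the PBS + vehicle arrays. Every stimulated array was above every PBS array, with a ratio of means of 2.45 and a log2 fold change of 1.25 ± 0.09 (adjusted p = 1.4e-10). Nars, the asparaginyl-tRNA synthetase gene, spanned 1049.9 to 1213 in Anti-IgD + vehicle and 533 to 691 in PBS + vehicle (0.85 ± 0.08; adjusted p = 5.9e-09). Sars, which charges tRNA with serine, had 713, 669.8, 807 and 799.9 in the Anti-IgD + vehicle arrays, against 429.8, 448, 489.8 and 377 in the PBS + vehicle arrays, with no overlap (0.76 ± 0.08; adjusted p = 1.4e-07). Gars, for glycine, spanned 663 to 807 in Anti-IgD + vehicle and 399 to 459 in PBS + vehicle (0.74 ± 0.07). Cars, for cysteine, spanned 136 to 171 in Anti-IgD + vehicle and 79.8 to 98.4 in PBS + vehicle (0.70 ± 0.13). Aars, for alanine, spanned 352 to 527 in Anti-IgD + vehicle and 251 to 297 in PBS + vehicle (0.66 ± 0.11). These rises lay between those of the leading genes and a lower set of 4 genes with log2 fold changes between 0.44 and 0.51: Farsb (0.51 ± 0.08) and Farsa (0.48 ± 0.14), the subunits of phenylalanyl-tRNA synthetase, Yars, for tyrosine (0.45 ± 0.11), and Hars, for histidine (0.44 ± 0.10). With the position row as a block the Yars call was lost (0.29, adjusted p = 0.12), and with the mean of its probe sets that of Farsb was lost (0.18, adjusted p = 0.085).

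Vars, the valyl-tRNA synthetase gene, went the other way. It had 357, 375, 383 and 321 in the Anti-IgD + vehicle arrays, against 608, 476, 701 and 662 in the PBS + vehicle arrays, so that all stimulated arrays lay below all PBS arrays, and the log2 fold change was -0.73 ± 0.11 (adjusted p = 9.9e-06). The fall was smaller after the shift to one median and still called (-0.57, adjusted p = 1.0e-04). Wars, the tryptophanyl-tRNA synthetase gene, had 159, 175, 152 and 178 in the Anti-IgD + vehicle arrays, against 155, 147, 165 and 201 in the PBS + vehicle arrays. Its ranges overlapped, with a log2 fold change of 0.00 ± 0.13 (adjusted p = 0.98; 95% interval -0.27 to 0.27). By enzyme class, 9 of 9 class II genes rose, over a range of 0.44 to 1.25, and 5 of 8 class I genes rose while 2 fell. Of all genes tested, 17.4% were higher and 30.6% lower. The bifunctional Eprs was put in neither class, and the classes were set with these values known, so no contrast between them is read.

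In the ATF4 response, Ddit3 rose most. This gene, which encodes CHOP, a partner and target of ATF4, had 455, 432, 443 and 489.6 in the Anti-IgD + vehicle arrays, against 148, 119, 115 and 127 in the PBS + vehicle arrays. Its groups were the farthest apart of the 32 genes by ratio of means, at 3.58, with a log2 fold change of 1.72 ± 0.09 (adjusted p = 1.0e-12). Atf4 itself had 1647, 1502, 1563 and 1663 in the Anti-IgD + vehicle arrays, against 939, 922, 933 and 851 in the PBS + vehicle arrays, without overlap (0.80 ± 0.08; adjusted p = 3.1e-08). Ppp1r15a, which encodes GADD34, the subunit that directs a phosphatase to eIF2, had 292, 296, 281 and 269 in the Anti-IgD + vehicle arrays, against 111, 107, 128 and 117 in the PBS + vehicle arrays. No array of either group came near the other, and the log2 fold change was 1.19 ± 0.12 (adjusted p = 3.6e-08). Cebpb, a C/EBP partner of ATF4, had 343, 290.4, 328 and 174 in the Anti-IgD + vehicle arrays, against 195, 181, 149 and 169 in the PBS + vehicle arrays. Its lowest stimulated array fell within the PBS range, the log2 fold change was 0.63 ± 0.16 (adjusted p = 0.0023), and the call was lost with the position row as a block (0.49, adjusted p = 0.099).

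Trib3, a pseudokinase gene induced by ATF4 and CHOP, was near the filter level: it had 21.5, 29.2, 20.5 and 23.6 in the Anti-IgD + vehicle arrays, against 14.5, 14.6, 1.20 and 18.6 in the PBS + vehicle arrays. Its ranges did not overlap, and the log2 fold change was 0.53 ± 0.20 (adjusted p = 0.029). The call was lost without replicates 2 or 5 of Anti-IgD + vehicle or replicate 3 of PBS + vehicle (0.31 to 0.53, adjusted p = 0.053 to 0.15) and with the position row as a block (adjusted p = 0.067). Trib3 passed the filter only through the Anti-IgD + vehicle arrays, as too few arrays of the other groups exceeded the filter signal. Its values in comparisons that use that group, the interaction included, were favoured by the filter and are no independent support. Counts of called genes include it. Eif2ak4, the GCN2 kinase gene, had 225, 158, 222 and 196 in the Anti-IgD + vehicle arrays, against 153, 132, 211 and 146 in the PBS + vehicle arrays, with overlap, and a log2 fold change of 0.30 ± 0.12 (adjusted p = 0.045). That call was lost on leaving out any array other than replicates 1, 3 and 4 of Anti-IgD + PF-303, replicate 2 of Anti-IgD + vehicle, replicates 3 and 4 of PBS + PF-303 and replicate 3 of PBS + vehicle (0.22 to 0.31). The remaining genes of the family were not called: Asns, asparagine synthetase (0.36 ± 0.18, adjusted p = 0.11), Atf5, a related transcription factor translated in the same way as Atf4 (0.22 ± 0.16), Chac1, which encodes an enzyme that degrades glutathione (0.32 ± 0.17), Cebpg, another C/EBP partner (-0.08 ± 0.09), and Sesn2, an inhibitor of mTORC1 in the absence of leucine (-0.08 ± 0.14). Asns passed the test without replicate 3 of PBS + vehicle (0.52, adjusted p = 0.020), and the Chac1 arrays did not overlap (16.7 to 21.4 in Anti-IgD + vehicle and 7.65 to 16.2 in PBS + vehicle). Chac1, like Trib3, passed the filter only through the Anti-IgD + vehicle arrays, so that gap was favoured by the filter. Within position row C of the labels, which held 1 array of each of these groups, the median of the 32 genes was 0.61 and 24 of the 25 called genes had the same sign. Those arrays were also part of the fit, and where groups do not overlap the sign is fixed. The sign counts by row are thus no separate check. With the row as a block, 19 genes were higher and 1 was lower.

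**Figure D1:**
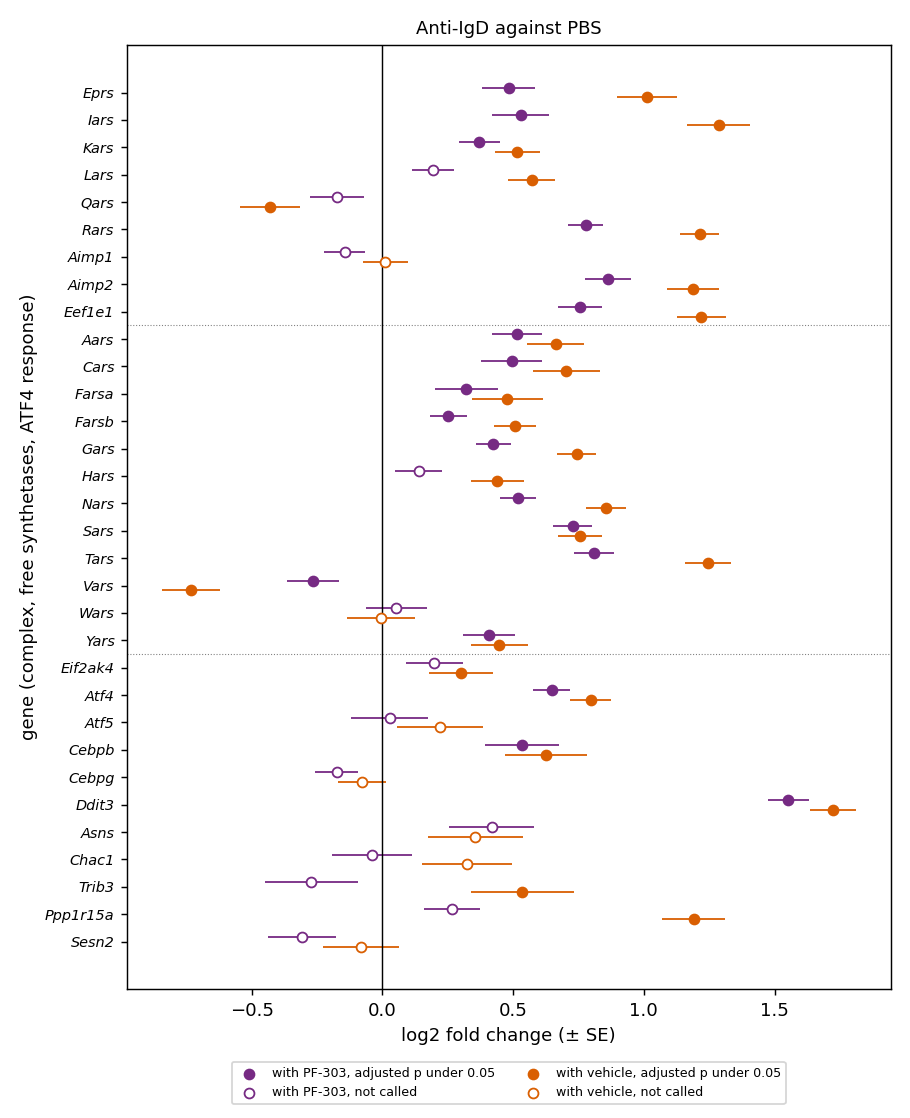
Log2 fold change of anti-IgD against PBS (horizontal axis) for each of the 32 genes tested, grouped by family, with PF-303 (purple, upper mark) and with vehicle (orange, lower mark); bars are ± 1 SE and filled marks have an adjusted p under 0.05. With vehicle Ddit3 lies farthest to the right (1.72) and Vars farthest to the left (-0.73), and most purple marks sit closer to 0 than the orange marks of the same gene.

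**Figure D2:**
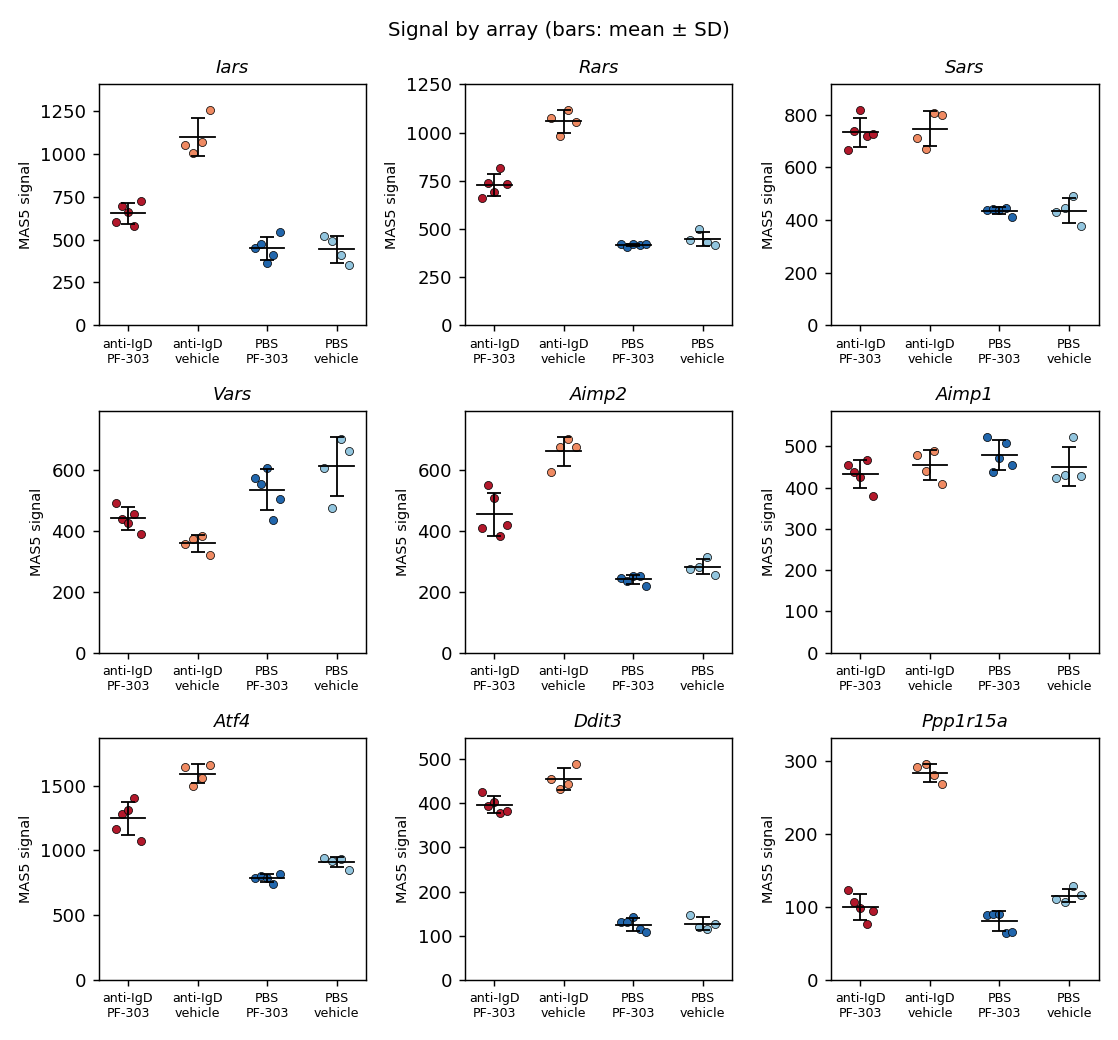
MAS5 signal (vertical axis, arbitrary units, from 0) of 9 genes on each of the 18 arrays, in the order Anti-IgD + PF-303, Anti-IgD + vehicle, PBS + PF-303 and PBS + vehicle; points are arrays and bars are mean ± SD. Iars, Rars and Ppp1r15a show lower points with PF-303 than with vehicle after anti-IgD, Sars shows both stimulated groups at one level, Vars runs the other way, and Aimp1 overlaps in all groups.

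PF-303 lowered a large part of the anti-IgD signals of these genes. In Anti-IgD + PF-303 against Anti-IgD + vehicle, 17 of 32 genes were lower and 1 was higher, where 30.2% of all genes tested were called, 10.4% lower and 19.8% higher. The median log2 fold change was -0.32 over the 32 genes and 0.08 over all genes. Of the synthetase and scaffold genes 13 of 21 fell (median -0.37), and of the ATF4 response 4 of 11 fell (median -0.31). This comparison shares its 4 Anti-IgD + vehicle arrays with the one above, so the values are given side by side and no relation between both is read. After the shift to one median, which moved the median of all genes to -0.03, 22 genes were lower (7 of them in the ATF4 response) and the whole-table calls were 43.1% higher ones, in place of 65.7%; after quantile normalization 20 genes were lower and that share was 52.1%.

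Iars had 604, 695, 657, 578 and 724 in the Anti-IgD + PF-303 arrays, against 1003 to 1256 in Anti-IgD + vehicle. All arrays with PF-303 were lower, with a ratio of means of 0.595 and a log2 fold change of -0.73 ± 0.11 (adjusted p = 3.9e-05). Eprs had 547, 493, 457, 462 and 556 with PF-303, against 745 to 893 with vehicle (-0.72 ± 0.11; adjusted p = 2.6e-05). Rars had 663, 738, 692, 815 and 734 with PF-303, against 981 to 1119 with vehicle (-0.53 ± 0.07; adjusted p = 6.6e-06). In all 3 genes of the complex the highest PF-303 array lay below the lowest vehicle array. Eef1e1 (849.9 ± 70.9 in Anti-IgD + PF-303 and 1361 ± 134 in Anti-IgD + vehicle; SD, n = 5 and 4) had a log2 fold change of -0.67 ± 0.09. Aimp2 (453 ± 71.1 in Anti-IgD + PF-303 and 660.2 ± 47.4 in Anti-IgD + vehicle) had a log2 fold change of -0.54 ± 0.09. Lars spanned 364 to 421 in Anti-IgD + PF-303 and 464 to 652 in Anti-IgD + vehicle (-0.44 ± 0.09; adjusted p = 4.0e-04). Kars spanned 537 to 657 in Anti-IgD + PF-303 and 675 to 707 in Anti-IgD + vehicle (-0.24 ± 0.08; adjusted p = 0.030), and its call was lost without replicates 1, 4 or 5 of Anti-IgD + PF-303 or replicates 2, 4 or 5 of Anti-IgD + vehicle (-0.24 to -0.21). Of the 9 genes grouped as this complex 7 thus fell, and the values for the others were 0.17 ± 0.11 for Qars (adjusted p = 0.26) and -0.07 ± 0.08 for Aimp1 (adjusted p = 0.59).

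Outside the complex, 6 of 12 genes fell and Vars rose. Tars had 462, 477, 448, 501 and 488 in the Anti-IgD + PF-303 arrays, against 632 to 827 in Anti-IgD + vehicle, without overlap (-0.65 ± 0.08; adjusted p = 3.7e-06). Gars had 526 ± 16.3 in Anti-IgD + PF-303 and 736 ± 60.1 in Anti-IgD + vehicle (-0.47 ± 0.07). Nars had 816 ± 36.7 in Anti-IgD + PF-303 and 1133 ± 73.8 in Anti-IgD + vehicle (-0.46 ± 0.07). The genes Farsb (-0.37 ± 0.08), Hars (-0.37 ± 0.10) and Aars (-0.30 ± 0.10) fell by less, and the Aars ranges overlapped (299 to 397 in Anti-IgD + PF-303 and 352 to 527 in Anti-IgD + vehicle). The Aars call was lost without replicates 1, 2 or 5 of Anti-IgD + PF-303 or replicates 1, 4 or 5 of Anti-IgD + vehicle (-0.31 to -0.21), that of Hars with the position row as a block (-0.32, adjusted p = 0.053), and the Farsb value was 8.0e-04 with the mean of its probe sets. Cars (-0.32 ± 0.12, adjusted p = 0.051) and Farsa (-0.33 ± 0.13, adjusted p = 0.060) just missed the threshold and passed it without replicates 3 or 4 of Anti-IgD + PF-303 or replicate 2 of Anti-IgD + vehicle for Cars (-0.40 to -0.37) and without replicates 2 or 3 of Anti-IgD + PF-303 for Farsa (-0.41 to -0.40). Yars (-0.15 ± 0.10, adjusted p = 0.31) and Wars (-0.04 ± 0.12, adjusted p = 0.86) were not called.

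Sars and Vars departed from this. Sars had 666, 739.9, 819.8, 718 and 726 in the Anti-IgD + PF-303 arrays, against 713, 669.8, 807 and 799.9 in Anti-IgD + vehicle. The groups covered the same range, with a log2 fold change of -0.02 ± 0.08 (adjusted p = 0.86; 95% interval -0.19 to 0.14), so a fall of the size seen in Iars or Tars lay outside the interval. Vars had 492, 440.0, 427, 456 and 391 with PF-303, against 357, 375, 383 and 321 with vehicle, with no overlap. Its log2 fold change was 0.28 ± 0.10 (adjusted p = 0.044), and the call was lost on leaving out any array other than replicate 5 of Anti-IgD + PF-303, replicate 4 of Anti-IgD + vehicle, replicates 3 and 4 of PBS + PF-303 and replicates 2, 3 and 4 of PBS + vehicle (0.23 to 0.31) and after the shift to one median (0.18).

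Of the ATF4 response, Ppp1r15a moved most with PF-303. It had 124, 106, 98.7, 76.5 and 94.4 in the Anti-IgD + PF-303 arrays, against 292, 296, 281 and 269 in Anti-IgD + vehicle. The means stood in a ratio of 0.352, and the log2 fold change of -1.38 ± 0.11 (adjusted p = 1.5e-08) was the lowest of the 32 genes. Atf4 had 1169.7, 1282, 1313, 1404 and 1077 with PF-303, against 1502 to 1663 with vehicle, without overlap (-0.35 ± 0.08; adjusted p = 0.0010). Trib3 had 6.02, 7.84, 15.0, 12.6 and 8.65 with PF-303, against 20.5 to 29.2 with vehicle (-0.61 ± 0.19, adjusted p = 0.016). Without replicate 2 of Anti-IgD + vehicle the adjusted p was 0.051, and with the position row as a block it was 0.096. This fall, too, was favoured by the filter, which Trib3 passed only through the Anti-IgD + vehicle arrays. Eif2ak4 had 157 ± 10.9 in Anti-IgD + PF-303 and 200.4 ± 31.0 in Anti-IgD + vehicle and overlapping ranges (-0.31 ± 0.11; adjusted p = 0.044), and its call was lost on leaving out any array other than replicate 4 of Anti-IgD + PF-303, replicate 2 of Anti-IgD + vehicle, replicates 3 and 4 of PBS + PF-303 and replicates 2, 3 and 4 of PBS + vehicle (-0.32 to -0.26).

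Ddit3 had 426, 395, 404, 378 and 382 in the Anti-IgD + PF-303 arrays, against 455, 432, 443 and 489.6 in Anti-IgD + vehicle. The ranges did not overlap, but the log2 fold change of -0.19 ± 0.08 was not called (adjusted p = 0.094); after the shift to one median it was -0.30 (adjusted p = 0.0083). Cebpb was not called either (-0.28 ± 0.15, adjusted p = 0.17), and without replicate 5 of Anti-IgD + vehicle it was -0.48 (adjusted p = 0.0051). The values for the rest were -0.32 ± 0.16 for Atf5, -0.26 ± 0.17 for Asns, -0.31 ± 0.16 for Chac1, -0.13 ± 0.14 for Sesn2 and 0.12 ± 0.09 for Cebpg, with no call. In position row C, with 2 arrays against 1, the median of the 32 genes was -0.44 and 18 of 18 called genes had the same sign. These arrays were again part of the fit, so the sign count is no separate check. With the row as a block 14 genes were lower.

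**Figure D3:**
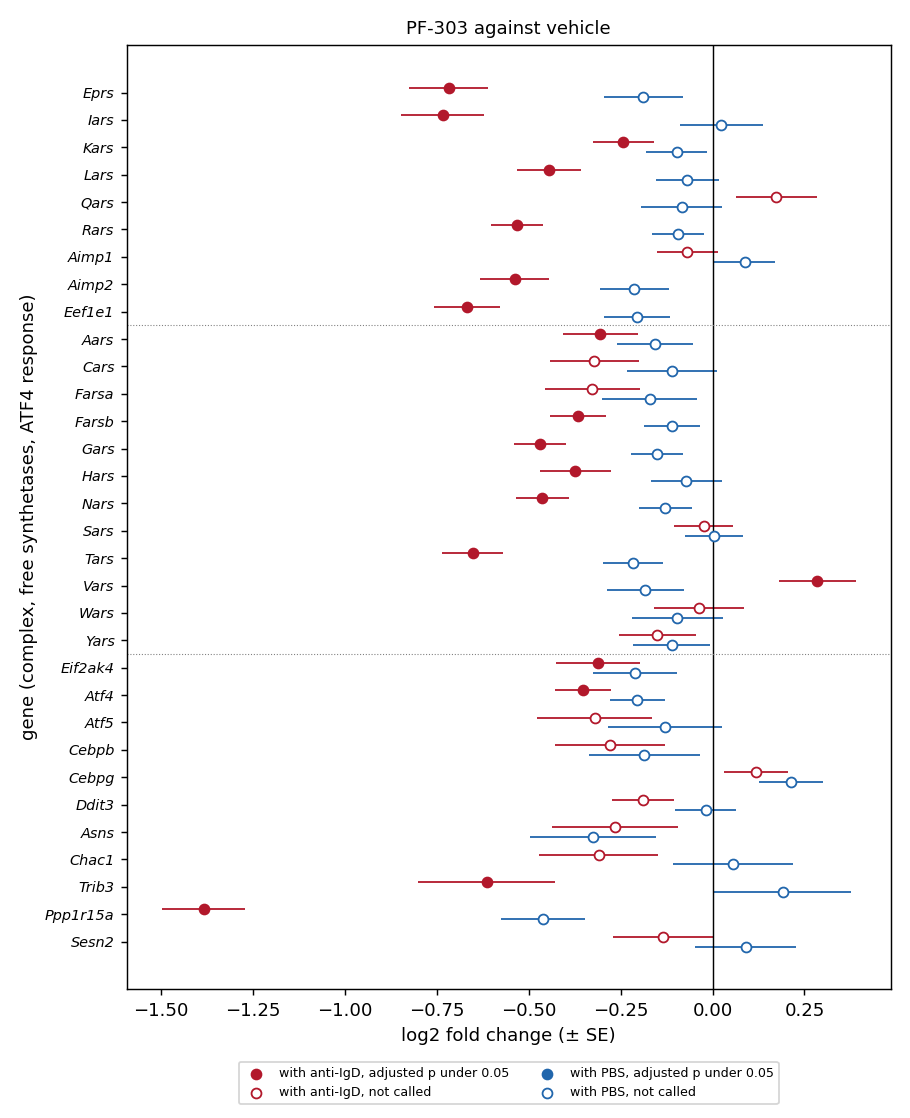
Log2 fold change of PF-303 against vehicle (horizontal axis) for each of the 32 genes tested, with anti-IgD (red, upper mark) and with PBS (blue, lower mark); bars are ± 1 SE and filled marks have an adjusted p under 0.05. Ppp1r15a lies farthest to the left with anti-IgD (-1.38), Sars lies at 0 in both, and the blue marks are open throughout.

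With PBS, PF-303 changed none of the 32 genes past the threshold (0 higher and 0 lower by limma), where 0.747% of all genes tested were called, 0.072% higher and 0.675% lower. At an unadjusted p under 0.05 there were 7 genes, of which 6 were lower and 1 was higher. The median log2 fold change was -0.11, against 0.01 for all genes, and 25 of the 32 values were below 0. Ppp1r15a came nearest: it had 88.9, 90.9, 90.9, 64.9 and 65.7 in the PBS + PF-303 arrays, against 111, 107, 128 and 117 in the PBS + vehicle arrays, without overlap. Its log2 fold change was -0.46 ± 0.11 (adjusted p = 0.057), and it passed the threshold without replicates 1 or 4 of Anti-IgD + PF-303 (adjusted p = 0.035 to 0.036). Atf4 had 788, 804, 787, 742 and 820.0 in the PBS + PF-303 arrays, against 939, 922, 933 and 851 in the PBS + vehicle arrays. These ranges did not overlap either, with a log2 fold change of -0.20 ± 0.08 (adjusted p = 0.28), while the second Atf4 probe set gave -0.01. Aimp2, the third gene whose ranges lay apart, had 244, 236, 252, 252 and 217 in the PBS + PF-303 arrays, against 275, 279.7, 314 and 256 in the PBS + vehicle arrays (-0.21 ± 0.09; adjusted p = 0.41). For the 5 genes that changed most with anti-IgD and vehicle the 95% intervals were -0.19 to 0.16 for Ddit3, -0.21 to 0.26 for Iars, -0.39 to -0.04 for Tars, -0.39 to -0.02 for Eef1e1 and -0.24 to 0.05 for Rars. The intervals of Tars and Eef1e1, which are not adjusted for the number of genes, lay below 0. For Ddit3 and Iars the second probe sets gave -0.40 and -0.30, below the intervals given, so these bounds hold for the probe sets used only. Within the position rows that held both groups, the median was -0.09 in row B, -0.15 in row F and -0.14 in row G.

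Anti-IgD still raised most of these genes in mice given PF-303. In Anti-IgD + PF-303 against PBS + PF-303, 18 of 32 genes were higher and 1 was lower, where 33.8% of all genes tested were called, 14.7% higher and 19.1% lower. The median log2 fold change was 0.39, against -0.05 for all genes. Of the synthetase and scaffold genes 15 of 21 rose (median 0.42), and of the ATF4 response 3 of 11 rose (median 0.20), or 5 after the shift to one median or quantile normalization. The scaffold gene Aimp2 spanned 383 to 549 in Anti-IgD + PF-303 and 217 to 252 in PBS + PF-303 (0.86 ± 0.09; adjusted p = 8.7e-08). Tars spanned 448 to 501 in Anti-IgD + PF-303 and 249 to 293 in PBS + PF-303 (0.81 ± 0.08). Rars spanned 663 to 815 in Anti-IgD + PF-303 and 406 to 424 in PBS + PF-303 (0.78 ± 0.07). These 3 genes had the largest synthetase or scaffold responses with PF-303, followed by Eef1e1 (0.76 ± 0.08) and Sars (0.73 ± 0.07). Iars, which led with vehicle, spanned 578 to 724 in Anti-IgD + PF-303 and 365 to 544 in PBS + PF-303 (0.53 ± 0.11; adjusted p = 5.2e-04). Further rises were 0.52 ± 0.07 for Nars, 0.51 ± 0.10 for Aars, 0.49 ± 0.12 for Cars, 0.48 ± 0.10 for Eprs, 0.42 ± 0.07 for Gars, 0.41 ± 0.10 for Yars, 0.37 ± 0.08 for Kars, 0.32 ± 0.12 for Farsa and 0.25 ± 0.07 for Farsb. The ranges of Cars, Farsa, Farsb and Vars overlapped. When the 6 arrays with raised spike-in controls were left out, the calls of Farsb (0.22, adjusted p = 0.070) and Yars (0.33, adjusted p = 0.066) were lost, and that of Farsb also with the mean of its probe sets (0.15, adjusted p = 0.13). Lars (0.19 ± 0.08, adjusted p = 0.069) and Hars (0.14 ± 0.09, adjusted p = 0.27), which rose with vehicle, were not called, and Lars passed without replicate 5 of Anti-IgD + vehicle (adjusted p = 0.039).

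Vars was again the gene called lower, spanning 391 to 492 in Anti-IgD + PF-303 and 435 to 608 in PBS + PF-303 (-0.27 ± 0.10, adjusted p = 0.042). That call was lost without replicates 2, 3, 4 or 5 of Anti-IgD + PF-303, replicate 1 of Anti-IgD + vehicle or replicates 1, 2, 3 or 5 of PBS + PF-303 (-0.28 to -0.22), and that of Farsa without replicates 2 or 3 of Anti-IgD + PF-303, replicates 1, 2, 4 or 5 of Anti-IgD + vehicle, replicates 1, 2 or 5 of PBS + PF-303 or replicate 2 of PBS + vehicle (0.24 to 0.32). In the ATF4 response, Ddit3 had 426, 395, 404, 378 and 382 in the Anti-IgD + PF-303 arrays, against 132, 130.1, 143, 115 and 107 in PBS + PF-303. This was the largest of the responses with PF-303, at 1.55 ± 0.08 (adjusted p = 1.3e-12). Atf4 spanned 1077 to 1404 in Anti-IgD + PF-303 and 742 to 820.0 in PBS + PF-303 (0.65 ± 0.07; adjusted p = 2.3e-07). Cebpb spanned 201 to 259.5 in Anti-IgD + PF-303 and 122 to 185 in PBS + PF-303 (0.53 ± 0.14; adjusted p = 0.0053), and its call was lost with its second probe set (0.38, adjusted p = 0.088). Ppp1r15a, in contrast, had overlapping ranges of 76.5 to 124 in Anti-IgD + PF-303 and 64.9 to 90.9 in PBS + PF-303 and was not called (0.27 ± 0.11, adjusted p = 0.059); without replicate 4 of Anti-IgD + PF-303 or replicates 2 or 3 of PBS + PF-303 it passed (0.31 to 0.35, adjusted p = 0.013 to 0.044). Asns stood at the threshold (0.42 ± 0.16, adjusted p = 0.050) and passed it without replicate 3 of Anti-IgD + PF-303, replicate 2 of PBS + PF-303 or replicates 3 or 4 of PBS + vehicle (0.42 to 0.53). The Trib3 value was -0.27 ± 0.18 and that of Eif2ak4 0.20 ± 0.11, with no call. Sesn2 had the lowest value of the 32 genes, -0.31, also with no call, though it was called under 2 alternatives. Its low signals did not overlap, at 15.8 to 27.3 in Anti-IgD + PF-303 and 27.6 to 38.6 in PBS + PF-303, and its second probe set gave 0.11. Within position row F the median of the 32 genes was 0.41 and 19 of 19 called genes had the same sign. In row G the median was 0.41 with 18 of 19. Here too the arrays were part of the fit, so the sign counts are no separate check.

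The difference between both anti-IgD responses was tested as an interaction, the response with PF-303 minus the response with vehicle. It was negative, meaning a smaller rise with PF-303, for 8 of 32 genes and positive for 1, where 9.78% of all genes tested were called, 3.12% negative and 6.66% positive. The median was -0.20 over the 32 genes and 0.07 over all genes. Ppp1r15a had the lowest value, -0.92 ± 0.16 (adjusted p = 0.0011), from responses of 0.27 with PF-303 and 1.19 with vehicle. Iars followed at -0.76 ± 0.16 (adjusted p = 0.0047), from 0.53 with PF-303 and 1.29 with vehicle; with its second probe set the value was -0.36 and the call was lost (adjusted p = 0.32). The other negative values were -0.53 ± 0.15 for Eprs (adjusted p = 0.030), -0.46 ± 0.13 for Eef1e1 (0.023), -0.44 ± 0.10 for Rars (0.0080), -0.44 ± 0.12 for Tars (0.021), -0.34 ± 0.10 for Nars (0.041) and -0.32 ± 0.10 for Gars (0.046). Of the 8 genes, 4 belong to the multisynthetase complex (Iars, Eprs, Rars and Eef1e1), and Ppp1r15a is the only one of the ATF4 response.

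The positive value was that of Vars, 0.47 ± 0.15 (adjusted p = 0.049), whose fall was smaller with PF-303. Sars, whose response was 0.73 with PF-303 and 0.76 with vehicle, had an interaction of -0.03 ± 0.11 with a 95% interval of -0.26 to 0.20, and Ddit3 one of -0.17 ± 0.12 with an interval of -0.42 to 0.08. Both intervals include 0 and leave out the Iars value of -0.76. The value of the second Iars probe set lay outside the Sars interval and inside that of Ddit3. The second Ddit3 probe set gave 0.27, above the Ddit3 interval. Trib3 (-0.81 ± 0.26, adjusted p = 0.057) and Lars (-0.38 ± 0.12, adjusted p = 0.053) were near the threshold, and passed it without replicate 3 of Anti-IgD + PF-303 or replicate 4 of PBS + vehicle for Trib3 (-0.92 to -0.87) and without replicates 2 or 3 of Anti-IgD + PF-303, replicate 2 of Anti-IgD + vehicle or replicate 4 of PBS + vehicle for Lars (-0.44 to -0.40). Aimp2 (-0.33 ± 0.13, adjusted p = 0.13) passed without replicate 2 of Anti-IgD + PF-303 (-0.40), while its second probe set gave -0.10. Several calls were lost on leaving out a single array. Those of Tars (-0.39) and Eef1e1 (-0.43) were lost without replicate 5 of Anti-IgD + vehicle, and that of Eprs without replicates 3 or 4 of Anti-IgD + PF-303, replicates 4 or 5 of Anti-IgD + vehicle, replicates 1, 2 or 5 of PBS + PF-303 or replicate 3 of PBS + vehicle (-0.50 to -0.46). The Nars call was lost on leaving out any array other than replicates 2 and 3 of Anti-IgD + PF-303, replicate 2 of Anti-IgD + vehicle, replicate 3 of PBS + PF-303 and replicates 2 and 4 of PBS + vehicle (-0.35 to -0.27), the Gars call on leaving out any other than replicate 1 of Anti-IgD + PF-303, replicate 2 of Anti-IgD + vehicle, replicate 3 of PBS + PF-303 and replicate 2 of PBS + vehicle (-0.33 to -0.28), and the Vars call on leaving out any other than replicate 5 of Anti-IgD + PF-303, replicate 3 of PBS + PF-303 and replicate 2 of PBS + vehicle (0.40 to 0.50). The Eprs call was also lost with its second probe set (-0.32, adjusted p = 0.069). When the 6 arrays with raised spike-in controls were left out, the calls of Rars (-0.29, adjusted p = 0.14), Tars (-0.36, adjusted p = 0.14) and Eef1e1 (-0.43, adjusted p = 0.086) were lost. With the position row as a block, 3 negative values were called, and Rars (-0.44, adjusted p = 0.098) and Tars (-0.40, adjusted p = 0.20) were not among them. After the shift to one median, which moved the median of all genes to -0.05, 12 genes were negative and 33.4% of the whole-table calls were positive, in place of 68.1%; after quantile normalization that share was 53.2%.

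**Figure D4:**
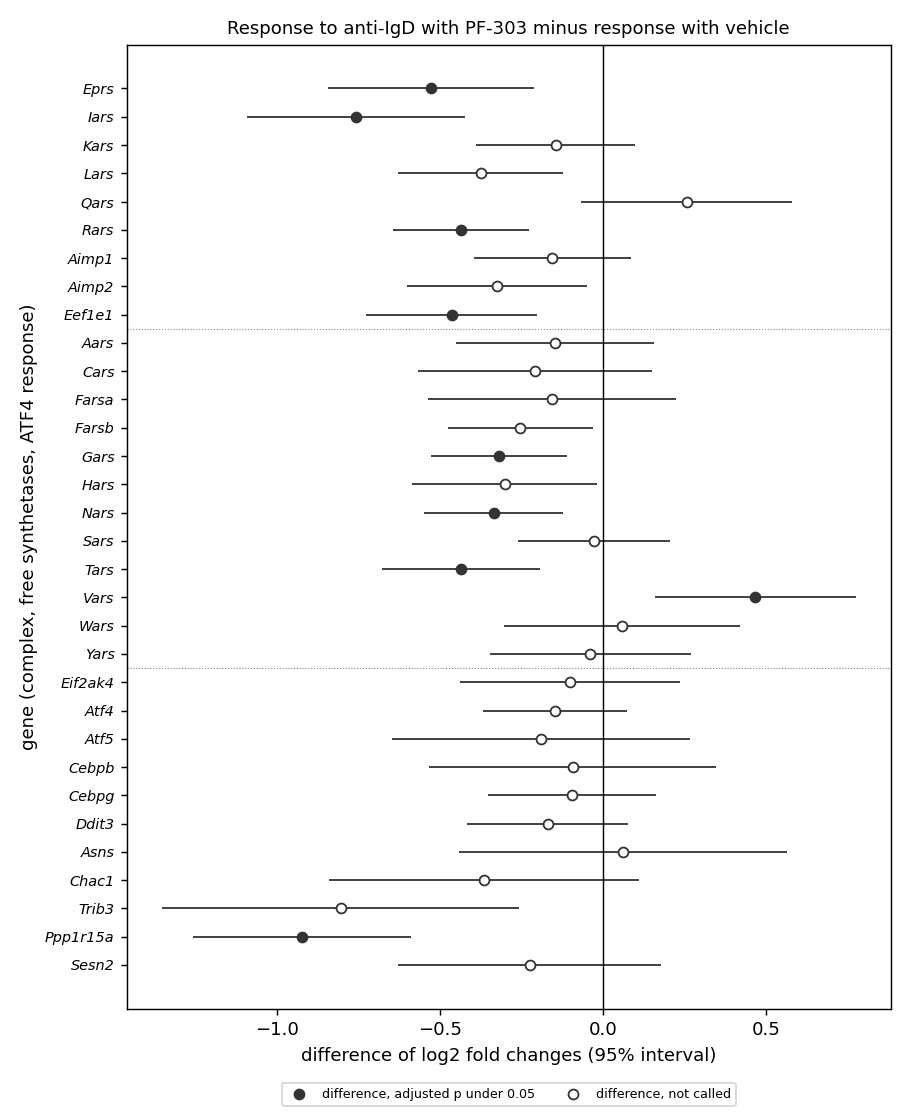
Interaction (horizontal axis, log2 response to anti-IgD with PF-303 minus that with vehicle) for each of the 32 genes tested; bars are 95% intervals and filled marks have an adjusted p under 0.05. Ppp1r15a (-0.92), Trib3 (-0.81, open) and Iars (-0.76) lie farthest to the left, Vars (0.47) farthest to the right, and Sars lies next to 0.

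Genes around these families were read from lists chosen with earlier results of these data known, and each count is to be set against all genes tested, of which 17.4% were higher and 30.6% lower with anti-IgD and vehicle, and 19.8% higher and 10.4% lower with PF-303 under anti-IgD. Among 9 other genes of cytosolic aminoacylation and related tRNA steps, 4 rose and 1 fell with anti-IgD and vehicle, with a median of 0.10. Those that rose were the tRNA methyltransferase gene Trmt61a (1.59 ± 0.11), the tRNA exporter gene Xpot (0.88 ± 0.09), the CCA-adding enzyme gene Trnt1 (0.65 ± 0.14) and the methionyl-tRNA synthetase gene Mars1 (0.57 ± 0.10). Of these 4, only Mars1 encodes a synthetase. The same 4 fell with PF-303 under anti-IgD, with log2 fold changes of -0.79, -0.54, -0.49 and -0.32. Of the mitochondrial synthetase genes, 2 of 19 rose with anti-IgD and vehicle (Nars2, 0.72, and Yars2, 0.70) and 7 fell, among them Cars2 (-0.79) and Aars2 (-0.77), with a median of -0.15. These shares, 10.53% higher and 36.84% lower, and the median were near those of all genes. With PF-303 under anti-IgD, 1 of the 19 rose and 2 fell.

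Of 15 genes for eIF2, its kinases, its exchange factor eIF2B and phosphatase partners, 7 rose and 4 fell with anti-IgD and vehicle (46.67% and 26.67%), so that the share of falls was near that of all genes. Eif2b3, an eIF2B subunit gene, rose by 1.11 ± 0.11, and Eif2ak3, which encodes the kinase PERK, fell, with a log2 fold change of -0.77 ± 0.09; with PF-303 under anti-IgD their values were -0.75 ± 0.10 and 0.47 ± 0.09. Among 28 other ATF4 target genes, 14 rose and 3 fell with anti-IgD and vehicle (50% and 10.71%; median 0.40), and 10 fell and 3 rose with PF-303 under anti-IgD (35.71% and 10.71%; median -0.12). The amino acid transporter genes Slc7a5 (3.24 ± 0.28) and Slc7a1 (1.84 ± 0.09), the mitochondrial folate enzyme gene Mthfd2 (1.50 ± 0.11) and the growth factor gene Vegfa (1.34 ± 0.17) led the rises. With PF-303 under anti-IgD, Slc7a5 (-1.37 ± 0.27), Vegfa (-1.28 ± 0.16) and Mthfd2 (-1.19 ± 0.10) fell and Ddit4, an inhibitor of mTORC1, rose (1.27 ± 0.17). The genes of the unfolded protein response outside ATF4 were mixed: 8 of 18 rose and 2 fell with anti-IgD and vehicle (44.44% and 11.11%), with Dnajb9 (0.82), Hspa5 (0.62) and Manf (0.50) higher and Pdia4 (-0.98) lower, and 2 rose and 3 fell with PF-303 under anti-IgD (11.11% and 16.67%).

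Of 14 genes for mTORC1 inhibitors and nutrient sensors, 4 rose and 7 fell with anti-IgD and vehicle (28.57% and 50%; median -0.35), both above the shares of all genes. With PF-303 under anti-IgD 9 rose, Ddit4 among them, and 0 fell (64.29% higher; median 0.42), in a comparison where more of all genes were called higher than lower. The leucine-sensing gene Sesn1 fell with anti-IgD and vehicle (-1.49 ± 0.09), while the Rag GTPase gene Rragd (1.44 ± 0.13) and the folliculin complex genes Fnip1 (1.26 ± 0.18) and Flcn (1.21 ± 0.11) rose. With PF-303 under anti-IgD, Rragd (0.89 ± 0.13), Sesn1 (0.50 ± 0.09) and Sesn3 (0.50 ± 0.08) rose. Ddit4 stands on this list and on that of ATF4 targets. No list was tested as a set.

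**Figure D5:**
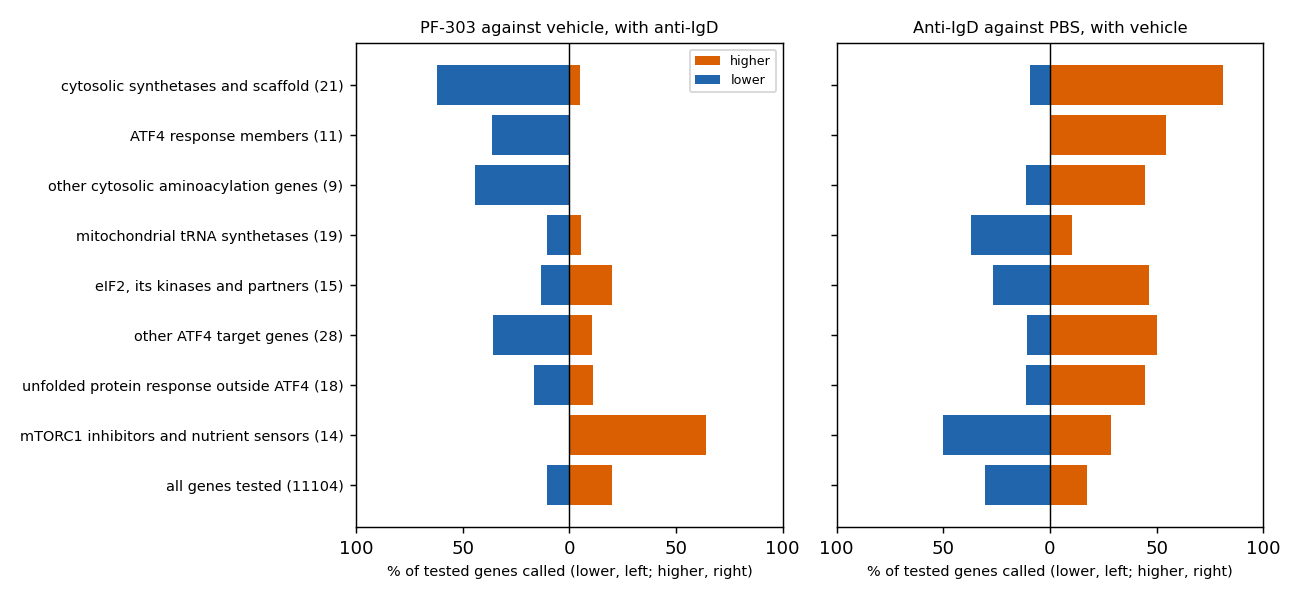
Share of genes called higher (right of 0) and lower (left of 0), in percent of the genes tested in each list, for PF-303 against vehicle with anti-IgD (left panel) and anti-IgD against PBS with vehicle (right panel). The cytosolic synthetase and scaffold genes have 61.9% lower in the left panel and 80.95% higher in the right panel, against 10.4% and 17.4% for all genes tested. The mixed list of mTORC1 inhibitors and nutrient sensors has 64.29% higher in the left panel, against 19.8% for all genes tested.

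Other probe sets of the same genes were compared where they passed the filter. For 18 of the 32 genes there were 29 such probe sets. Their change had the sign of the probe set used in 26 of 29 for anti-IgD with vehicle, 24 of 29 for PF-303 with anti-IgD, 18 of 29 for PF-303 with PBS, 24 of 29 for anti-IgD with PF-303 and 23 of 29 for the interaction. Where the gene was called, these counts were 21 of 22, 12 of 13, 15 of 17 and 5 of 5 (no gene was called for PF-303 with PBS), and the exceptions were Farsb in each of the first 3 and Farsa in anti-IgD with PF-303. Of the 4 Farsb probe sets, 3 had the same sign in these comparisons, with log2 fold changes of 0.51, 0.51 and 0.56 with anti-IgD and vehicle and -0.37, -0.24 and -0.14 with PF-303 under anti-IgD. The fourth, with the lowest mean signal, had -0.87 and 0.75. The second Ddit3 probe set changed by 1.45 with anti-IgD in PF-303-treated mice and by 1.17 in vehicle-treated mice. The Atf4 interaction was -0.15 with the probe set used and -0.47 with the second Atf4 probe set. The probe sets used for Farsb, Wars and Trib3 have the suffix by which the manufacturer marks probes shared with other sequences, and those of Aars, Iars and Sars the suffix for probes common to several transcripts, so their values may hold signal of related transcripts.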

How the data were processed

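RNA of 18 CD23+ B-cell samples was hybridised to Mouse Genome 430 2.0 arrays from 150 ng of total RNA with the GeneChip 3' IVT Express kit, per the labels. The deposited intensity values are linear MAS5 signals, per the submitters' processing notes; the MAS5 version and settings are not given in the sources used here. The 2%-trimmed mean was 99.96 to 99.97 on every array, so the arrays were deposited on a common scale, which removes differences in total RNA. Of 45101 probe sets, 64 were controls, 34945 had 1 gene symbol in the platform annotation, 932 had several and 9160 had none. Depth does not apply to arrays; their number limits the precision, and the median SE of a log2 fold change was 0.116 to 0.129 for the group comparisons and 0.174 for the interaction.

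From the deposited signals, log2(signal + 16) was computed, probe sets above 15.2 (the median of all values) on at least 4 arrays were kept, and the probe set with the highest mean stood for each gene. Adding 16 understates the fold change of low signals. All 4 groups entered 1 linear model in limma 3.58.1 (R 4.3.3; statmod 1.5.0 for blocks), with eBayes and a mean-variance trend, two-sided, with Benjamini-Hochberg adjustment over 11104 genes in each of 5 contrasts. The code was tested on simulated data. Groups and replicate numbers came from the labels, which do not say that samples were separate mice, so the p-values reflect only how these arrays vary, part of which may be technical. No pair of arrays was identical, and the log2 differences within a pair had a standard deviation of at least 0.262. All 34 genes are accounted for; other genes were named only from lists of related pathways and cell type markers, at most 4 called genes of largest change per list and contrast. The genes and lists were chosen with earlier results of these data known, and the subgroups by complex, class and role with these values known. Alternatives covered the added constant, the filter, normalization, the probe set, blocks, the spike-in signal, the groups fitted, the trend and each array left out. Arrays with a Gapdh 3'/5' ratio over 1 were left out in 1 alternative chosen after seeing the data. Promoters came from a RefSeq table of GRCm38.p6.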

Additional observations from a re-analysis of the deposited data

Results flagged for a closer look

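Dixon's test for a single outlying array was run in 128 sets of 4 or 5 arrays (each of the 32 genes in each group) and found 4, a smaller share than the 0.05 that chance gives. Kars had a signal of 580 in replicate 3 of PBS + vehicle, where the other arrays lay at 438 to 461. Aimp1 had 522 on the same array, against 424 to 430 on the others. Wars had 185 in replicate 3 of PBS + PF-303, against 141 to 152, and Sesn2 had 15.8 in replicate 1 of Anti-IgD + PF-303, against 24.6 to 27.3. All 4 values came from arrays with a spike-in signal over 2 times the median; the part of the spike-in signal was not tested.

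The responses to anti-IgD with PF-303 and with vehicle differed by the interaction test of limma in 9 genes, given as the response with PF-303 minus that with vehicle on the log2 scale. The values were -0.92 for Ppp1r15a, -0.76 for Iars, -0.53 for Eprs, -0.46 for Eef1e1, -0.44 for Rars, -0.44 for Tars, -0.34 for Nars, -0.32 for Gars and 0.47 for Vars. The calls of Vars, Gars and Nars were lost under most alternatives, and that of Iars with its second probe set (-0.36).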

How the results depend on the processing

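Of 160 combinations of gene and comparison, 71 were called, and 45 of these calls were kept under every alternative that gave a value for them. These were 33 alternatives at most, 18 of which left out 1 array; 31 to 33 gave a value for each combination, and the fit to only the groups compared was not run for the interaction. For PF-303 against vehicle with anti-IgD, the Aars call was lost with its second probe set (-0.19, adjusted p = 0.28) and that of Kars without the high Gapdh arrays (-0.22, adjusted p = 0.061). Farsb changed sign in 1 case, PF-303 against vehicle with anti-IgD, where the mean of its probe sets gave 8.0e-04. For anti-IgD against PBS with vehicle, leaving out each array gave 21 to 23 genes higher and 2 to 2 lower; 1 was lower after the shift to one median and with the position row as a block. For PF-303 against vehicle with anti-IgD, leaving out each array gave 14 to 18 genes lower and 0 to 1 higher, and the single higher gene, Vars, was lost (0 genes) with no filter, the shift to one median, quantile normalization, the position row as a block, the spike-in covariate, no trend, and without the high spike-in or high Gapdh arrays. For PF-303 against vehicle with PBS, 1 gene was lower with a stricter filter, quantile normalization, the mean of probe sets and the spike-in covariate, and 0 to 1 on leaving out each array. For anti-IgD against PBS with PF-303, 17 to 19 genes were higher and 0 to 1 lower on leaving out each array; 0 were lower with no filter, the shift to one median, the second probe set and the position row as a block, and 2 with the mean of probe sets. For the interaction, 3 to 9 genes were negative and 0 to 1 positive on leaving out each array; 5 were negative with the second probe set, 3 with the position row as a block and 4 without the high spike-in arrays, and 0 were positive under these and with an added constant of 64, no filter, the shift to one median, quantile normalization, the spike-in covariate, no trend, or without the high Gapdh arrays. Cause was not tested, except that leaving out arrays leaves fewer samples.

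Replicate numbers recur between groups without a stated meaning. Of 24 pairs of arrays with the same number, 7 had a correlation of deviations over 0.1 (median -0.0026, range -0.16 to 0.23), and 3 of 18 arrays correlated best with their own number, so the numbers were not taken as pairs. With the replicate number as a block, 22 genes rose and 2 fell with anti-IgD and vehicle, 18 were lower and 0 higher for PF-303 with anti-IgD, 19 higher and 3 lower for anti-IgD with PF-303, and 6 negative and 0 positive for the interaction.

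Limits: the groups hold 4 or 5 arrays, signals of Trib3, Chac1 and Nupr1 lie near the median of all values, and single-array dependence is greatest for Vars, Gars, Nars and Eif2ak4. Trib3 and Chac1 passed the filter only through the Anti-IgD + vehicle arrays.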
